A study of Mus musculus with 14 samples.

Results

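The MYC family and the MAX network were followed in 14 lung tumours of 2 mouse models. Both model a neuroendocrine tumour type, small cell lung cancer (SCLC). The set held 10 genes, Myc, Mycl, Mycn, Max, Mxd1, Mxd3, Mxd4, Mxi1, Mnt and Mga, chosen by symbol and not by level, of 46517 gene identifiers in the table. All 14 tumours arose in mice with floxed Rb1 and Trp53 after infection of the lung with an adenovirus that carries Cre recombinase under the Cgrp promoter, so both models lack these tumour suppressors in the cells the virus reached. The 11 RPM tumours also carried the Cre-activated Myc T58A transgene behind a lox-stop-lox (LSL) cassette. The source names gave LSL/LSL for 9 of them and LSL/+ for 2, replicates 2 and 4. The 3 RPR2 tumours instead came from mice with floxed Rbl2, the gene of p130, with no Myc transgene. All tumours were untreated and were cut from the lung by eye, so lung tissue beside the tumour cells is part of each sample. The Cgrp promoter is active in neuroendocrine cells. Age and sex were not given in the sources used here.

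MYC, MYCL and MYCN are transcription factors of the basic helix-loop-helix leucine zipper class that bind DNA at E-boxes as dimers with MAX and mostly raise transcription of genes for growth, ribosome production and metabolism. MAX also pairs with the MXD proteins (MXD1, MXI1, MXD3 and MXD4) and with MNT and MGA, which bind the same sites and mostly repress. In SCLC the 3 MYC genes are recurrently activated, usually not together in a tumour, and the T58A change removes a phosphorylation site at residue 58 through which MYC protein is marked for degradation.

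The promoters of 6 members are shown because these genes make up the family in the tumours or differed between the models: Mycl and Mycn, which led the family in RPR2, Max and Mxi1, which were higher in RPM, and Mxd1 and Mxd4, which were higher in RPR2. Each run is the 250 bases before the RefSeq start on GRCm38.p6, read 5′ to 3′ along the gene's strand. Capitals mark matches on either strand to the canonical E-box CACGTG, its variant CACGCG or the related CAGCTG, to the E2F motif TTTCCCGC or its variant TTTGGCGC, or to the TATA box letters TATAAA. No match overlapped another in these windows.
Mycl: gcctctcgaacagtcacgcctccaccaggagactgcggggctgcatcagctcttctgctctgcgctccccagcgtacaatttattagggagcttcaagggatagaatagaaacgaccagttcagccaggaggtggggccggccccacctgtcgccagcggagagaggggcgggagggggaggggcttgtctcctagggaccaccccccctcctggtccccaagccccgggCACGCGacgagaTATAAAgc
Mycn: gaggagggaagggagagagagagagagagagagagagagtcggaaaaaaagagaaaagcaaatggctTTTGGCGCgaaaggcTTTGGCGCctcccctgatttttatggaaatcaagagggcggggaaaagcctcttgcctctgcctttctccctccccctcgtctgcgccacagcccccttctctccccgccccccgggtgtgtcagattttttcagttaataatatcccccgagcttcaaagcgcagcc
Max: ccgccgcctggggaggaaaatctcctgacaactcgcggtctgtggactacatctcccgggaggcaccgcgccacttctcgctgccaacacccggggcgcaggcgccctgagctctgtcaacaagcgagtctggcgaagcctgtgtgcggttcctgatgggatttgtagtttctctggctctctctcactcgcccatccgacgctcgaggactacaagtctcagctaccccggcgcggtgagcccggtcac
Mxi1: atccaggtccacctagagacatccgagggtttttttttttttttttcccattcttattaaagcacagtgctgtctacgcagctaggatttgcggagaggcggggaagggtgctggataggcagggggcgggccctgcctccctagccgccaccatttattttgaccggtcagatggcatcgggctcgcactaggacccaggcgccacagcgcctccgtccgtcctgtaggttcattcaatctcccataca
Mxd1: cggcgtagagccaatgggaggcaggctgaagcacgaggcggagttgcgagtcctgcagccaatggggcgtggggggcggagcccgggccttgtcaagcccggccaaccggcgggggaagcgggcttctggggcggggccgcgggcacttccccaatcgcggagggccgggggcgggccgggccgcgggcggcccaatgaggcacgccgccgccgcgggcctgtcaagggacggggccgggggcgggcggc
Mxd4: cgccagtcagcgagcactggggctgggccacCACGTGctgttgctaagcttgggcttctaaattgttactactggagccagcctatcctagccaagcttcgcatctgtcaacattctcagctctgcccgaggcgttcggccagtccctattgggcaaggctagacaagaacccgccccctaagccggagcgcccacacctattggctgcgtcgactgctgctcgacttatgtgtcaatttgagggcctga

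These windows lie at chr4:122995681-122995930 (plus strand) for Mycl, chr12:12941837-12942086 (minus) for Mycn, chr12:76962249-76962498 (minus) for Max, chr19:53310256-53310505 (plus, the first of 3 RefSeq starts) for Mxi1, chr6:86669160-86669409 (minus) for Mxd1 and chr5:34187711-34187960 (minus) for Mxd4. The RefSeq table held 9 of the 10 members, in 11 windows. CACGTG, the preferred site of MYC-MAX and MXD-MAX dimers, was found in the windows of Mxd4 (starting 219 bases before the start) and Mnt (123 bases before), and in 6.02% of the 32851 windows of all genes. CACGCG was found in Mycl (20 bases before the start) and Mga (21 bases before), against 7.62% of all windows. Mycn held TTTGGCGC at 2 places, 183 and 168 bases before its start, against 0.417% of all windows with at least 1. Only Mycl among the members held TATAAA (8 bases before the start), against 12.4% of all windows, and no member window held CAGCTG (13% of all) or TTTCCCGC (0.895%). The window of Mxd1 was the richest of the 6 in G and C, at 78.4% with 32 CpG, and that of Mycn the poorest, at 54.8% with 11 CpG, against medians of 52.4% and 6 over all windows.

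The values are FPKM, fragments per kilobase of transcript per 1 M mapped reads, which can be compared between genes because they are per length. The libraries corresponded to an estimated 17.5 to 20.0 M mapped reads in RPM and 21.5 to 23.1 M in RPR2, and the lowest member value, Mycn in RPM replicate 8, to about 9.6 reads per kb. All RPR2 libraries share 1 code prefix in the descriptions that no RPM library has, so anything tied to that code cannot be told apart from the model. Within RPM, replicate 9 alone has a prefix that differs from the rest, and it holds the highest RPM value of Mycl, Mxi1 and Mxd4. Anything tied to its code cannot be told apart from that tumour. The neuroendocrine markers (12 genes, including Chga and Calca) summed to 315 to 1736 FPKM in RPM, and to 3962 and 5208 in RPR2 replicates 1 and 2, but to 72.1 in RPR2 replicate 3. That library held 53460 FPKM of 10 alveolar type 2 markers, led in this tissue by the surfactant genes, against 1953 and 2531 in the other RPR2 libraries and 150 to 1476 in RPM. RPR2 replicate 3 therefore stood apart from its label's neuroendocrine tumour type, and each comparison with RPR2 is given with and without it where its call or direction changed. A further difference lay in long transcripts. For each library the median log2 deviation of the longest 25% of tested genes, minus that of the shortest 25%, was taken. It was -0.88 in RPM replicate 2, -0.38 in RPM replicate 3 and -0.43 in RPR2 replicate 3, against -0.24 to 0.38 in the other libraries.

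Across the network, RPM tumours held more Myc, Max, Mxi1 and Mxd3 and less Mxd1 and Mxd4 than RPR2 tumours. These 6 of 10 members passed the test (limma on log2(FPKM + 1), Benjamini-Hochberg adjusted p under 0.05 over 15719 genes), 4 higher and 2 lower in RPM. The same test called 41.2% of all tested genes, 18.4% higher and 22.8% lower, so that calls were common everywhere. Without RPR2 replicate 3 it called 2529 genes higher and 4227 lower of 15406 tested. In 5 members, Myc, Max, Mxi1, Mxd1 and Mxd4, no RPM value overlapped an RPR2 value, against 24.7% of all tested genes. Of these, 3 were higher in RPM, against a share of 11.1% of all genes, and 2 lower, against 13.6%. The FPKM of a library summed to between 523529 (RPR2 replicate 1) and 939971 (RPM replicate 2), so the libraries were not on 1 scale. Overlap was counted on FPKM as deposited and not after scaling, so each statement on overlap in FPKM holds for those values only. Once each value is divided by the FPKM sum of its library, Max, Mxi1 and Mxd4 overlap between the models. Myc and Mxd1 do not. The median difference over all tested genes was -0.06 log2. In bulk tissue a lower level cannot be split between fewer cells of a type and less RNA per cell.

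**Figure D1:**
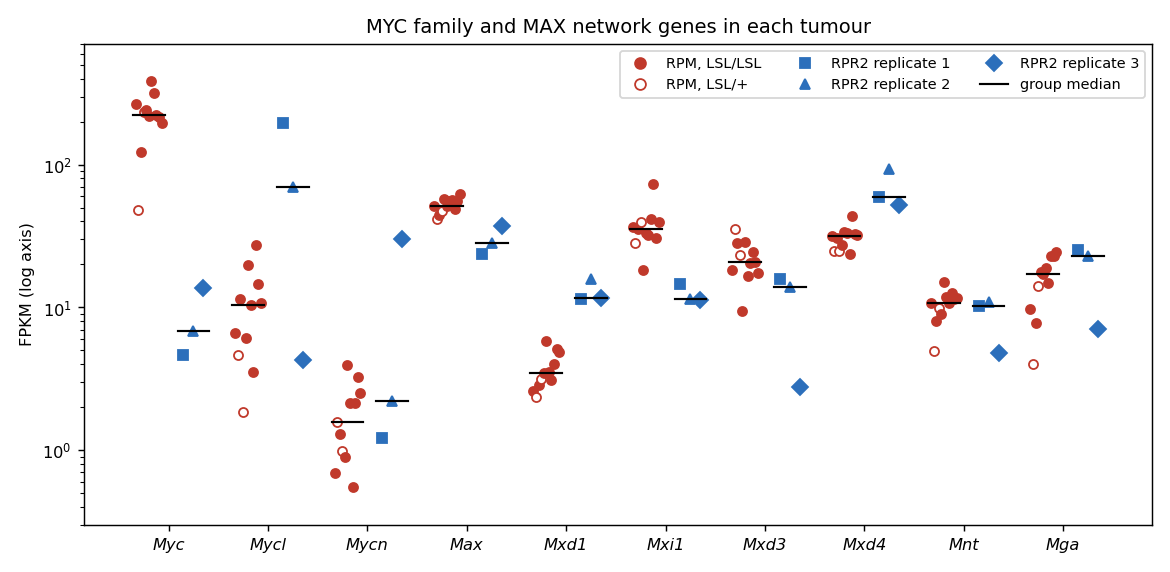
FPKM of the 10 members in each tumour on a log axis, with filled red circles for RPM LSL/LSL (9), open circles for LSL/+ (2) and a separate blue symbol for each of the 3 RPR2 tumours; horizontal lines are group medians. The RPM and RPR2 points of Myc, Max, Mxd1, Mxi1 and Mxd4 do not overlap, and RPR2 replicate 3 (diamond) is lowest of the RPR2 tumours for Mycl, at 4.32, and highest for Mycn, at 30.3.

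Myc, the founding member of the family (ENSMUSG00000022346, chr15:61985391-61990374, plus strand, GRCm38), ranged from 48.4 FPKM in RPM replicate 2 through a median of 224 to 384 in RPM replicate 7. In RPR2 replicates 1 to 3 it stood at 4.68, 6.83 and 13.6. Every RPM tumour was above every RPR2 tumour, and the lowest RPM tumour, an LSL/+ one, lay far below the next, replicate 3 at 123. The difference was 4.55 ± 0.46 (SE) log2, RPM minus RPR2, with an adjusted p of 3.32e-06 (limma, n = 11 and 3), a 26.7-fold ratio of the group means. Since RPM mice carry a Myc transgene by design, this value checks the labels, and the table does not separate transgene from endogenous Myc.

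Mycl, the paralog often raised in neuroendocrine SCLC (ENSMUSG00000028654, chr4:122995652-123002485, plus strand), ran from 1.86 FPKM in RPM replicate 4 through a median of 10.5 to 27.4 in RPM replicate 9. RPR2 replicates 1 and 2 held 197 and 69.6 FPKM, above every RPM tumour, while RPR2 replicate 3 held 4.32, below 9 of the 11. Over all libraries the difference of -2.14 ± 0.83 log2 did not pass (adjusted p = 0.0512, limma). Without RPR2 replicate 3 it was -3.63 with an adjusted p of 0.000718. With that library kept, Mycl also passed at a mean FPKM of at least 5 (adjusted p = 0.0488, limma), with median-of-ratios scaling (0.0430), quantile normalization (0.0377) or array weights (1.98e-05), and without RPM replicate 6 (0.0473) or 9 (0.0377).

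Mycn, the paralog of neural tissues and neuroblastoma (ENSMUSG00000037169, chr12:12936093-12941914, minus strand), was the lowest member in each of the 11 RPM tumours, from 0.55 FPKM through a median of 1.57 to 3.96. RPR2 replicates 1 and 2 were inside this range at 1.22 and 2.21, and RPR2 replicate 3 stood at 30.3. The difference of -1.20 ± 0.59 log2 did not pass (adjusted p = 0.115, limma). It was -0.02 (adjusted p = 0.971) without RPR2 replicate 3, and -1.93 (adjusted p = 0.0272) without RPR2 replicate 1.

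Summed over the 3 paralogs, the family reached 54.5 to 396 FPKM in RPM (median 242) and 203, 78.6 and 48.2 in RPR2 replicates 1 to 3. The sums of the models thus overlapped, although the gene that supplied them differed. Myc made up 88.3% to 98.8% of the family in RPM. In RPR2 replicate 1 Mycl made up 97.1%, in replicate 2 Mycl made up 88.5%, and in replicate 3 Mycn made up 62.8%, with 28.3% Myc and 8.96% Mycl. Each RPR2 tumour was therefore led by a paralog other than Myc, and no RPM tumour was. Because the transgene fixes the choice in RPM, these shares are a description and were not tested.

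**Figure D2:**
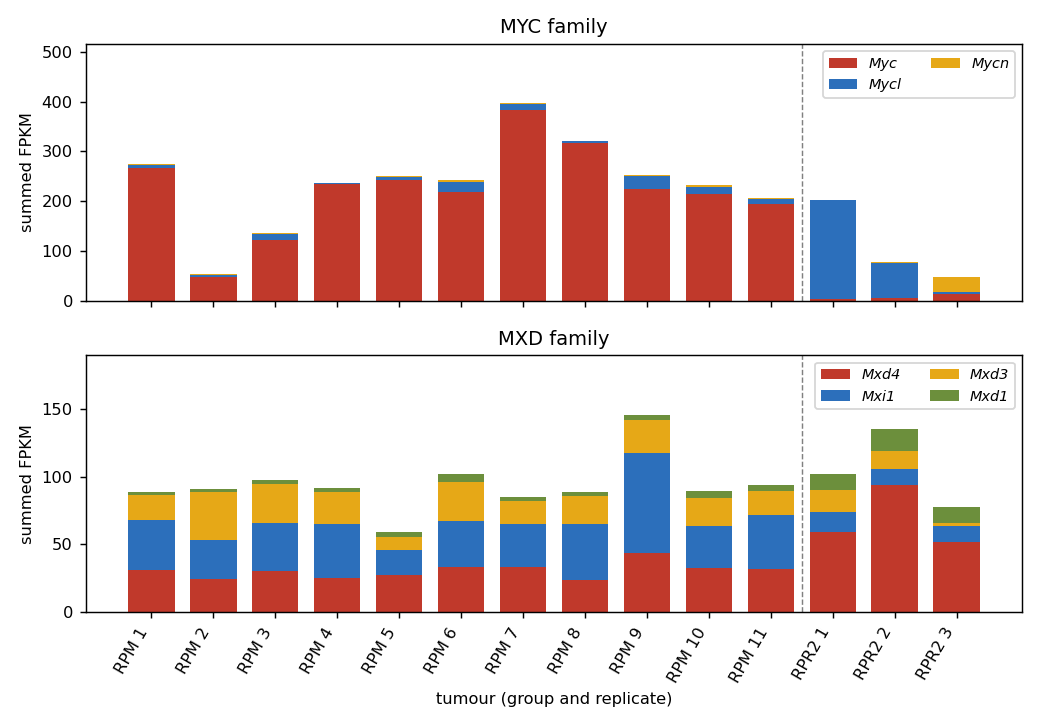
Stacked bars of summed FPKM in each tumour, for Myc, Mycl and Mycn in the upper panel and for Mxd4, Mxi1, Mxd3 and Mxd1 in the lower panel, from 0 on linear axes; the dashed line separates 11 RPM from 3 RPR2 tumours. Myc fills at least 88.3% of each RPM bar, Mycl leads in RPR2 replicates 1 and 2 and Mycn in replicate 3, and Mxd4 takes 58.6% to 69.5% of the MXD sum in RPR2 against 26.6% to 46.8% in RPM.

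Max, the shared dimer partner (ENSMUSG00000059436, chr12:76937269-76962201, minus strand), ranged from 41.5 FPKM in RPM replicate 2 through a median of 51.5 to 62.3 in RPM replicate 11. RPR2 replicates 1 to 3 held 23.7, 28.1 and 37.2, all below the lowest RPM tumour. The difference was 0.81 ± 0.15 log2 (adjusted p = 0.000564, limma), and 0.98 (adjusted p = 0.000175) without RPR2 replicate 3. Max was also the steadiest member within RPM. Its SD among the 11 tumours was 0.17 log2, and 5.41% of the tested genes had a smaller one, against a median SD of 0.38 over all tested genes.

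The ratio of the summed MYC family to Max, both in FPKM, was 1.31 to 7.15 in RPM (median 4.69) and 8.56, 2.80 and 1.30 in RPR2 replicates 1 to 3. The models overlapped in this ratio, and the highest and the lowest values were both from RPR2. The 6 antagonists (the 4 MXD genes, Mnt and Mga) summed to 1.50 to 3.69 times Max in RPM and to 5.79, 6.02 and 2.41 times Max in RPR2. RPR2 replicates 1 and 2 were above all RPM tumours, and RPR2 replicate 3 lay inside their range. The antagonist sum itself was 85.6 to 181 FPKM in RPM against 137, 169 and 89.6 in RPR2, again overlapping.

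Among the antagonists, the MXD genes split into a pair higher in RPM and a pair higher in RPR2. Mxd1, which is induced as many cell types stop dividing and differentiate (ENSMUSG00000001156, chr6:86647042-86669161, minus strand), ranged from 2.35 FPKM through a median of 3.47 to 5.79 in RPM. In RPR2 it stood at 11.6, 15.9 and 11.7, so that all RPR2 values were above all RPM values. The difference was -1.60 ± 0.23 log2 (adjusted p = 6.37e-05, limma). Mxd4, another MXD repressor linked to the exit from division (ENSMUSG00000037235, chr5:34173883-34187720, minus strand), ranged from 23.6 through 31.5 to 43.4 FPKM in RPM and stood at 59.5, 93.9 and 52.0 in RPR2, with no overlap. Its difference was -1.10 ± 0.19 log2 (adjusted p = 0.000346, limma). Both genes are found in differentiated epithelium as well, and the 9 epithelial markers summed to 11 to 225 FPKM in RPM against 2968, 3248 and 2188 in RPR2. The part of these cells in the Mxd1 and Mxd4 values was not tested.

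Mxi1, a further MXD repressor (ENSMUSG00000025025, chr19:53310518-53375810, plus strand), moved the other way. It ranged from 18.4 FPKM in RPM replicate 5 through a median of 35.4 to 73.6 in RPM replicate 9, and stood at 14.6, 11.4 and 11.3 in RPR2, with no overlap. The difference was 1.45 ± 0.27 log2 (adjusted p = 0.000622, limma). Mxd3, which unlike its relatives is expressed in dividing cells (ENSMUSG00000021485, chr13:55325168-55329823, minus strand), ranged from 9.47 through 20.7 to 35.3 FPKM in RPM and stood at 15.9, 13.9 and 2.78 in RPR2. Here the groups overlapped. The difference of 1.16 ± 0.40 log2 passed (adjusted p = 0.0287, limma) and was 0.47 (adjusted p = 0.262) without RPR2 replicate 3. It also lost its call with TPM scaling (0.96, adjusted p = 0.111) and with LSL/LSL tumours alone on the RPM side (1.07, adjusted p = 0.0546). Mxd3 overlaps Prelid1 on the opposite strand, and the strand setting of the counting is not given in the sources used here.

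The MXD sum was 58.9 to 146 FPKM in RPM, against 102, 135 and 77.8 in RPR2, and its makeup set the models apart where the total did not. Mxd4 was 26.6% to 46.8% of the sum in RPM and 58.6%, 69.5% and 66.8% in RPR2. Mxi1 was 31.2% to 50.6% in RPM and 14.4%, 8.42% and 14.5% in RPR2. Mxd1 was 2.59% to 5.89% in RPM and 11.4%, 11.8% and 15.1% in RPR2. Mxd3 was 16.1% to 38.9% in RPM and 15.7%, 10.3% and 3.58% in RPR2. In each of these shares no RPM tumour overlapped an RPR2 tumour. In the shares of Mxd4, Mxi1 and Mxd1, RPR2 replicate 3 lay beside the other RPR2 tumours, unlike in its MYC family genes. In that of Mxd3 it lay below them.

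Mnt, a constitutive MAX partner and repressor (ENSMUSG00000000282, chr11:74830920-74845725, plus strand), was 4.95 to 15.0 FPKM in RPM (median 10.7) and 10.2, 10.9 and 4.77 in RPR2. The difference of 0.29 ± 0.27 log2, with a 95% interval of -0.28 to 0.86, did not pass (adjusted p = 0.405, limma), turned to -0.04 without RPR2 replicate 3, and passed only under quantile normalization (0.57, adjusted p = 0.0167). Mga, a giant scaffold protein that joins MAX to a Polycomb repressor complex (ENSMUSG00000033943, chr2:119897228-119969581, plus strand), was 4.02 to 24.4 FPKM in RPM (median 17.1) and 25.4, 22.8 and 7.12 in RPR2. The difference of -0.16 ± 0.45 log2, with a 95% interval of -1.13 to 0.80, did not pass (adjusted p = 0.801, limma), and its sign changed with the libraries kept. Both genes were lowest in RPM replicate 2 and, of the RPR2 tumours, in replicate 3. Those libraries also had the lowest long-transcript values (-0.88 and -0.43), and the longest annotated transcripts of Mga and Mnt are 13931 and 4590 bases. The part of transcript length in these values was not tested.

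**Figure D3:**
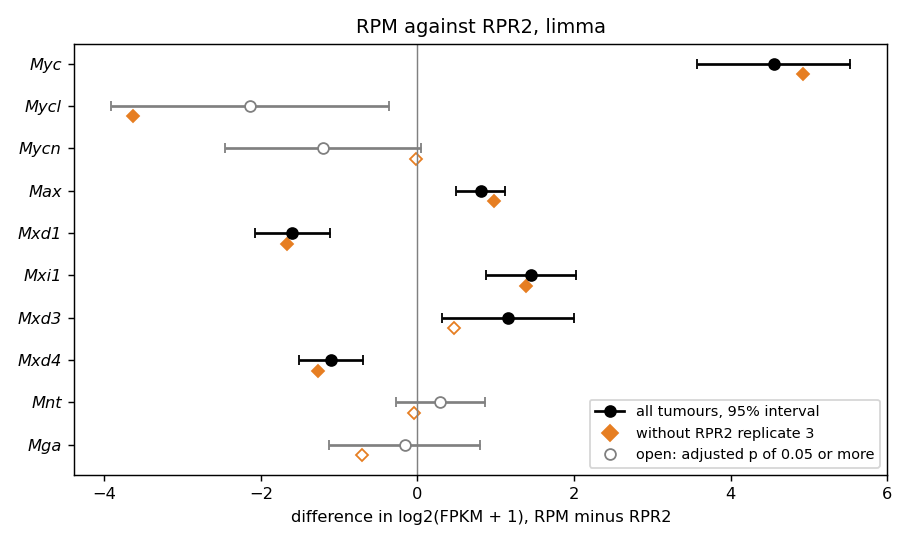
Difference between RPM and RPR2 in log2(FPKM + 1) for the 10 members, with circles and 95% intervals (limma, 11 against 3 tumours) and diamonds for the same fit without RPR2 replicate 3; open symbols have an adjusted p of 0.05 or more. Myc lies at 4.55, Mxd1 and Mxd4 at -1.60 and -1.10, and leaving out the library moves Mycl from -2.14 to -3.63 and Mxd3 from 1.16 to 0.47.

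By mean FPKM the order in RPM was Myc (224), Max (52.1), Mxi1 (37.2), Mxd4 (30.7), Mxd3 (22.1), Mga (15.9), Mycl (10.7), Mnt (10.5), Mxd1 (3.72) and Mycn (1.82). The ranges of each pair of neighbours in this order overlapped, although Myc was first and Mycn last in each of the 11 tumours taken singly. In RPR2 the order was Mycl (90.3), Mxd4 (68.4), Max (29.6), Mga (18.4), Mxd1 (13.1), Mxi1 (12.4), Mycn (11.2), Mxd3 (10.9), Mnt (8.62) and Myc (8.38). There, among neighbours, only the ranges of Mxd4 and Max did not overlap over the 3 tumours. Myc, first in RPM, was thus last by mean in RPR2, and Mxd4 stood below Mxi1 in RPM and above it in RPR2.

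Copies of the transgene were compared within RPM, 9 LSL/LSL against 2 LSL/+ tumours, to see whether the network follows allele number. Myc was 48.4 and 234 FPKM in the LSL/+ tumours and 123 to 384 (median 224) in LSL/LSL. Replicate 2 lay below all LSL/LSL tumours and replicate 4 in their middle. The difference of 1.12 ± 0.47 log2 did not pass (adjusted p = 0.276, limma). It turned to -0.01 without RPM replicate 2 and was 2.24 (adjusted p = 0.0721) without RPM replicate 4, fits in which the lone LSL/+ tumour is assumed to vary like the rest. No other member passed either. Mycl was 4.61 and 1.86 in LSL/+ against 3.52 to 27.4 in LSL/LSL (1.53 ± 0.56 log2, adjusted p = 0.262), Mga differed with a 95% interval of 0.05 to 1.95 (adjusted p = 0.279) and Mnt by 0.58 ± 0.24 (adjusted p = 0.275). At an unadjusted p under 0.05, limma gave 4 members (Myc, Mycl, Mnt and Mga) and 17.3% of the 14862 tested genes, while after adjustment 0.00673% of the genes, a single one, was called.

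Among RPM tumours Myc varied 7.94-fold from lowest to highest, with an SD of 0.79 log2, larger than that of 90.02% of tested genes. Mycl (SD 0.98) and Mga (SD 0.72) also varied more than most, exceeding 94.5% and 87.0% of genes. Whether other members followed Myc was asked by a slope, in log2 units of the gene per log2 unit of Myc, fitted over the 11 tumours. No member passed. The slope of Mga was 0.68 ± 0.18 (adjusted p = 0.0611, limma), that of Mnt 0.38 ± 0.10 (adjusted p = 0.0599), that of Max 0.15 ± 0.06 (adjusted p = 0.165) and that of Mxd3 -0.37 ± 0.15 (adjusted p = 0.146). Over all 14861 other tested genes 2.23% were called, and at an unadjusted p under 0.05 the 4 members just named stood among 25.6% of the genes.

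RPM replicate 2 was the tumour with the least Myc, Max, Mnt and Mga and the most Mxd3, and the one with the long-transcript value of -0.88. Without it limma called 0 genes and the SE of each of these slopes grew. The slopes of Mga and Mnt came nearer to 0, that of Max kept its value and that of Mxd3 was steeper. The values were 0.37 ± 0.35 for Mga, 0.19 ± 0.19 for Mnt, 0.15 ± 0.13 for Max and -0.42 ± 0.30 for Mxd3 (adjusted p = 0.997 for each, limma). Mga and Mnt passed under pseudocounts of 0.1 and 0.01 (adjusted p of 0.0452 to 0.0486), at a mean FPKM of at least 5 (0.0475 and 0.0447) and without RPM replicate 1 (0.0335 and 0.0498). Mga passed with array weights (0.0494), and Mga, Mnt and Max passed with TPM scaling (adjusted p of 0.0106, 0.0107 and 0.0152). The number of genes called was unsteady in general. It was 0 also without RPM replicate 6, 8, 9 or 10 and under median-of-ratios scaling, and 1 without replicate 3 or 7.

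**Figure D4:**
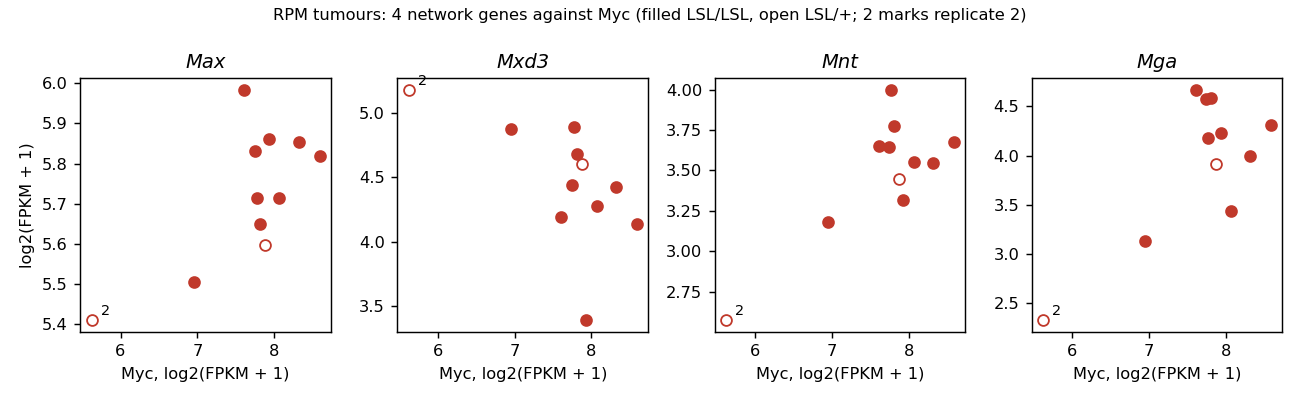
Max, Mxd3, Mnt and Mga against Myc in the 11 RPM tumours, each axis in log2(FPKM + 1); filled circles are LSL/LSL, open circles LSL/+, and the point marked 2 is replicate 2. That point sits alone at the left of each panel, and the slopes of 0.15, -0.37, 0.38 and 0.68 did not pass the test.

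The tumours whose titles share a number (RPM replicates 6 and 7, and 10 and 11) differed from each other over the 10 members by a mean of 0.43 and 0.18 log2. The other 53 pairs of RPM tumours differed by 0.22 to 1.17, with a median of 0.55. Over all tested genes, limma estimated the correlation within a title number at 0.76 for RPM against RPR2. It was 0.64 for LSL/LSL against LSL/+ and 0.61 for the slope on Myc. The main fits treat these tumours as separate. The labels do not say whether a shared number marks 1 mouse.

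The neighbours of the MYC genes within 500 kb were read next. Pvt1, a long noncoding RNA gene 52.6 kb downstream of the start of Myc and often gained with it in cancers, was 11.5 to 30.9 FPKM in RPM (median 18.6) and 1.56, 1.45 and 1.74 in RPR2. The groups did not overlap, and the difference was 3.01 ± 0.23 log2 (adjusted p = 2.94e-07, limma). Within RPM, replicate 4 had the most Pvt1 (30.9) and replicate 5 the least (11.5), and the slope of Pvt1 on Myc, -0.22 ± 0.13, did not pass (adjusted p = 0.314, limma).

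Around Mycl, 9 neighbours within 500 kb were tested. In RPR2 replicate 1, the tumour with the most Mycl, 4 of the 9 stood at least 2-fold above every other library, as did Mycl itself. Cap1, an actin regulator, held 302 FPKM there against at most 96.7 elsewhere, and Ppie, a prolyl isomerase, held 135 against at most 55.1. Trit1, which modifies transfer RNA, held 69.2 against at most 19.3, and the unclassified transcript Gm17244 held 5.24 against at most 2.05. The other 5 (Ppt1, Mfsd2a, Heyl, Pabpc4 and Gm25788) did not reach that ratio. Between 500 and 3000 kb from Mycl, 1 of 43 tested genes (Rspo1, 9.07 against at most 4.27) did so, and over all tested genes 0.579% did. The ratio of 2 and the wider window were chosen after these values were seen, and this is a single library with no replicate check.

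**Figure D5:**
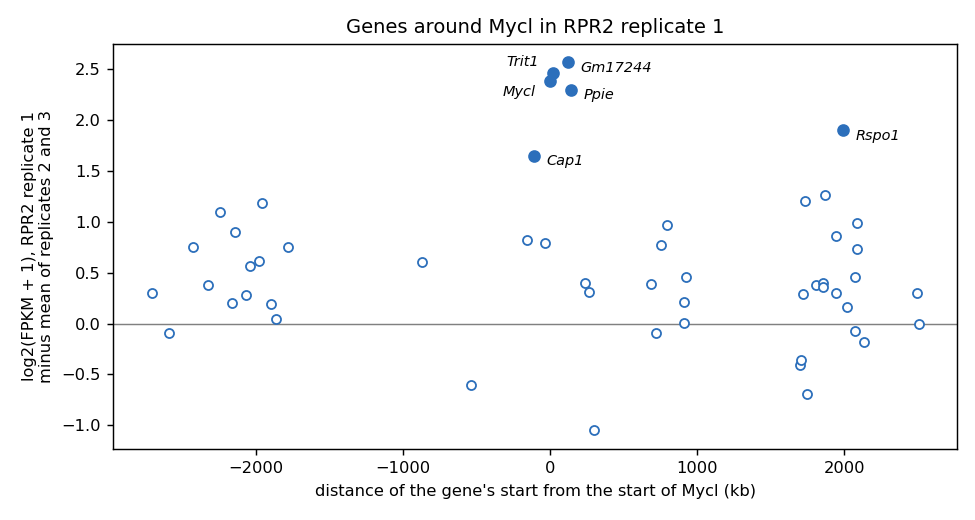
Genes tested within 3000 kb of Mycl, by distance of their start in kb, with the log2(FPKM + 1) of RPR2 replicate 1 minus the mean of RPR2 replicates 2 and 3; filled points are at least 2-fold above every other library. Mycl, Cap1, Trit1, Gm17244 and Ppie form a group above 1.6 within 200 kb of Mycl, and Rspo1 stands alone farther away.

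Some of the 9 tested neighbours of Mycl were also called between the models as a whole, in both directions. Over all tested genes the same test called 18.4% higher in RPM and 22.8% lower, so such calls were common everywhere. Cap1 was lower in RPM (-1.46 ± 0.32 log2, adjusted p = 0.00203, limma), with 30.9 to 72.5 FPKM in RPM against 302, 96.7 and 94.6 in RPR2. Ppt1, a lysosomal thioesterase, was lower (-0.98 ± 0.19, adjusted p = 0.000991), and Pabpc4, a poly(A)-binding protein, was higher by 1.53 ± 0.27 (adjusted p = 0.000423). Heyl, a Notch target, was higher by 1.29 ± 0.34 (adjusted p = 0.00749), a call lost without RPR2 replicate 3 (adjusted p = 0.0589), and without that library Trit1 was lower (-0.996 ± 0.378, adjusted p = 0.0453, limma; 0.362 with all). Around Mycn 3 neighbours were tested, and none was at least 2-fold above the other libraries in RPR2 replicate 3, where Mycn stood at 30.3; 4.79% of all tested genes were. Nbas stood at 3.97 there against 10.7 and 8.69 in RPR2 replicates 1 and 2, and Ddx1 at 51.6 against 65.2 and 63.2.

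By Pearson's r of log2(FPKM + 1) over the 14 libraries, the coding genes most like Myc were Polr1b (r = 0.988), a subunit of RNA polymerase I, Prmt5 (0.975) and Carm1 (0.974), both arginine methyltransferases, Pus7 (0.974), a pseudouridine synthase, and Cct8 (0.972), a chaperonin subunit. The points fall into the 2 models, which set much of these values, so r is given as a description. Max stood at rank 34 of 13231 genes (r = 0.943), Mxi1 at 809 (0.792), and Mxd1 and Mxd4 near the other end at -0.81 and -0.79. Among the 11 RPM tumours alone the closest genes were Ino80 (0.973), Crim1, Xpot, Uhrf1bp1l and Mrtfb, and Polr1b had a called slope on Myc of 0.38 ± 0.07 (adjusted p = 0.0427, limma), lost without RPM replicate 2. For Mycl the closest were Pcdhga4 (0.953), Cmpk2, Mindy2, Neto1 and Pald1. For Mycn they were Rac2 (0.922), Adam19, Nrn1, Lpcat1 and Sh3bgrl3, each highest in RPR2 replicate 3, on which these values rest.

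The remaining MYC genes and the MLX branch, a parallel network in which MLX takes the place of MAX and pairs with the glucose-sensing factors MLXIP and MLXIPL, held 5 genes. Mycs, an intronless rodent relative of Myc, was listed at 0 in all 14 libraries, and none of the 4 tested genes passed between the models. Bmyc was 16.4 to 33.7 FPKM in RPM against 15.3, 19.6 and 20.3 in RPR2, Mlx differed by -0.26 ± 0.25 log2 and Mlxip by -0.19 ± 0.24. Mlxipl was 0.15 to 5.66 FPKM in RPM against 7.53, 6.13 and 0.36 in RPR2 (-1.24 ± 0.51, adjusted p = 0.0649), and it passed without RPR2 replicate 3 (-2.08, adjusted p = 0.00220, limma). Of 8 other factors that bind E-boxes, none was higher in RPM (18.4% of all tested genes) and 3 were lower (22.8%). These were Mitf (-0.99 ± 0.20, adjusted p = 0.000981), Tfeb (-1.32 ± 0.27, adjusted p = 0.00148) and Tfe3 (-0.62 ± 0.14, adjusted p = 0.00216), the related regulators of lysosomal genes. Without RPR2 replicate 3 the count was again 3 but of 7 genes, since Mitf no longer reached the filter on level, and Clock, a circadian factor, was called lower (-1.52 ± 0.33, adjusted p = 0.00219, limma; 0.1504 with all libraries).

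Among genes that MYC is known to activate, 26 of 30 were higher in RPM and none lower, against 18.4% and 22.8% of all tested genes. The median difference was 1.84 log2 against -0.06 over all tested genes. Without RPR2 replicate 3 the count of higher genes was again 26. Nolc1, a nucleolar protein, was 61.8 to 101 FPKM in RPM against 21.6, 20.2 and 12.7 in RPR2 (2.11 ± 0.18, adjusted p = 6.99e-07, limma). Hspd1, a mitochondrial chaperonin, was 293 to 489 and 104, 85.1 and 97.6 (1.97 ± 0.18, adjusted p = 1.18e-06), and Nme1, a nucleoside diphosphate kinase, 109 to 226 and 44.6, 37.9 and 31.2 (2.06 ± 0.18, adjusted p = 1.19e-06). Srm, the spermidine synthase gene, also passed. The targets Cad, Ptma, Ccnd2 and Tert did not pass (Cad 0.82 ± 0.40, adjusted p = 0.109; 0.0310 with quantile normalization). Within RPM 3 of the 30 had a called slope on Myc, Polr1b, Dkc1 (0.40 ± 0.08) and Cad (0.52 ± 0.12), and none of them without RPM replicate 2.

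Of 18 genes that MYC is known to repress, 9 were lower in RPM and 3 higher, against 22.8% and 18.4% of all tested genes. Their median was -0.88 log2. Without RPR2 replicate 3, 10 were lower and 3 higher, against 4227 and 2529 of all 15406 genes tested then. Cdkn2b, an inhibitor of the cyclin D kinases, was 0.38 to 3.40 FPKM in RPM against 15.5, 15.2 and 25.5 in RPR2 (-2.98 ± 0.31, adjusted p = 4.55e-06, limma). Klf6, a zinc finger factor, was 3.77 to 11.5 and 33.3, 34.5 and 20.2 (-1.91 ± 0.28, adjusted p = 0.000105). Cebpd (-2.84 ± 0.52) and Cebpa (-3.08 ± 0.62), factors of differentiated epithelium and other tissues, were lower too, and Cebpa reached 262 FPKM in RPR2 replicate 3 against 17.7 and 21.9 in the others; without that library it differed by -1.85 (adjusted p = 0.00304). All 10 alveolar type 2 and all 9 epithelial markers were lower in RPM as well, and 5 and 9 of them without RPR2 replicate 3. Their part in these values was not tested. The 3 higher genes, named after their values were seen, were Ndrg4 and the collagen genes Col1a1 and Col1a2. Of 7 fibroblast markers, 4 were higher in RPM, both of these collagens among them. Of the rest 1, Dcn, was lower, and 2, Lum and Pdgfra, were not called.

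Cofactors of the network were read as 3 lists. Over all tested genes 18.4% were called higher and 22.8% lower. Without RPR2 replicate 3 these were 2529 higher and 4227 lower of 15406, so lower calls were the more common ones in general. In the Polycomb complex PRC1.6, in which MGA and MAX sit, 6 of 12 genes were higher in RPM and 1 lower, and without RPR2 replicate 3 the counts were 3 and 2. Hdac2, a deacetylase (0.82 ± 0.16, adjusted p = 0.000836, limma), and Tfdp1, the E2F partner (1.04 ± 0.25, adjusted p = 0.00413), were higher, and Ring1, a ubiquitin ligase of histone tails, was lower (-0.63 ± 0.15, adjusted p = 0.00297). Of 14 genes of the SIN3 and NCOR corepressors, which the MXD proteins recruit, Rbbp7 was higher (0.53 ± 0.18, adjusted p = 0.0266; 0.204 without RPR2 replicate 3) and Arid4a lower (-1.07 ± 0.34, adjusted p = 0.0213). Without that library 1 was higher (Sap18, 0.68 ± 0.18) and 3 were lower (Arid4a, Rbbp4 at -0.60 ± 0.16 and Suds3 at -0.51 ± 0.16). Of 19 coactivators 7 were higher and 2 lower (5 and 2 without RPR2 replicate 3). Kat2a, an acetyltransferase that MYC recruits, was 33.1 to 50.0 FPKM in RPM against 15.7, 14.2 and 14.9 in RPR2 (1.48 ± 0.14, adjusted p = 1.58e-06), and the paired ATPases Ruvbl2 and Ruvbl1 differed by 1.35 ± 0.15 and 1.31 ± 0.18. Wdr5, a MYC-binding scaffold on both lists, differed by 0.48 ± 0.12 (adjusted p = 0.00398).

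Of 19 genes that govern turnover of MYC protein, 8 were higher and 2 lower in RPM, and 6 and 5 without RPR2 replicate 3. Over all tested genes 18.4% were higher and 22.8% lower, and without that library 2529 and 4227 of 15406 were. Ppp2r5a, the phosphatase subunit that directs dephosphorylation of MYC, was 12.7 to 31.1 FPKM in RPM against 82.3, 95.8 and 43.0 in RPR2 (-1.76 ± 0.27, adjusted p = 0.000147, limma). Cip2a, an inhibitor of that phosphatase, was higher (0.80 ± 0.17, adjusted p = 0.00159), as was Aurka, a kinase that shields MYC proteins (1.11 ± 0.24, adjusted p = 0.00186). Fbxw7, whose ubiquitin ligase reads the site that T58A removes, did not pass with all libraries (-0.43 ± 0.32, adjusted p = 0.297, limma) and was lower in RPM without RPR2 replicate 3 (-0.97 ± 0.27, adjusted p = 0.0103). Among 11 tested genes known to act on Myc transcription, 4 were higher and 1 lower, against 3 and 3 without RPR2 replicate 3. Beside Pvt1 the higher ones were E2f3 (1.04 ± 0.23, adjusted p = 0.00224), Fubp1 (1.47 ± 0.40, adjusted p = 0.00904; 0.0711 without RPR2 replicate 3), which binds upstream of Myc, and Neurod1, a neuronal factor (2.28 ± 0.78, adjusted p = 0.0303; 0.0745 without RPR2 replicate 3). Ctnnb1, the Wnt effector, was lower (-0.80 ± 0.27, adjusted p = 0.0268). With TPM scaling the calls of Rbbp7, Tfdp1, Wdr5, Cip2a, E2f3, Fubp1, Heyl, Col1a1 and Col1a2 were lost (adjusted p of 0.0514 to 0.364, limma), and with quantile normalization those of Rbbp7 and Ring1 (0.388 and 0.0780).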

How the data were processed

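RNA from 11 RPM and 3 RPR2 tumours was sequenced from single ends of stranded, poly(A)-selected libraries, per the labels' protocols. The authors deposited FPKM values per Ensembl gene in 1 table, which names each sample by its title. Bowtie 1.0.1, RSEM 1.2.12 and the mm10 build are listed, without settings, per the submitters' processing notes. RSEM divides reads shared between similar genes, and the strand setting is not given in the sources used here. No read counts are in the table, so depth was estimated from the steps of low values in short genes, and no count model was fitted.

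Genes that reached an FPKM of 1 in 3 or more of the fitted libraries were tested on log2(FPKM + 1), a scale on which changes of low genes are understated. The test was limma 3.58.1 in R 4.3.3 with a mean-variance trend, Benjamini-Hochberg adjustment over all tested genes and a threshold of 0.05, after a check on simulated data. The 3 comparisons were RPM against RPR2, LSL/LSL against LSL/+ and the slope on Myc within RPM. Differences are given ± SE. The labels do not say that samples came from separate mice, so p-values measure the spread between these samples. Replicates were numbered in accession order, which pairs nothing. Python 3.11.15 was used for descriptions and figures.

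The members and lists were chosen with earlier results of these data known. Named were all members, the MLX branch, up to 4 called genes of smallest p per other list, tested neighbours within 500 kb of the MYC genes and the 5 coding genes most like each of them; 1 gene that the rule named is not reported here. Coordinates are from GENCODE release M21 on GRCm38, the assembly of mm10, and promoters from RefSeq on GRCm38.p6. Alternatives were 2 other pseudocounts, 2 other filters, 3 scalings, array weights, leaving out each library, title numbers as a random effect or with 1 library each, and LSL/LSL tumours only.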

Additional observations from a re-analysis of the deposited data

Results flagged for a closer look

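Among the 9 LSL/LSL tumours, Mxd3 in RPM replicate 5 stood apart as the lowest value, at 9.47 FPKM against 16.6 to 28.8 in the other 8. On log2(FPKM + 1), the gap to its nearest neighbour was 0.498 of the whole range, just above Dixon's 95% critical value for 9 samples. In FPKM the gap was a smaller part of the range, so the flag holds for the log2 scale only. The test was run on the 10 members, and chance flags about 1 in 20 groups. The same tumour had the lowest Mxi1 of RPM (18.4 FPKM), the lowest neuroendocrine marker sum (315 FPKM) and the highest Mlxipl (5.66 FPKM).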

How the results depend on the processing

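For RPM against RPR2, the calls of Myc, Max, Mxd1, Mxd4 and Mxi1 held under all 26 alternatives. Mxd3 lost its call under 4 of 26 and Mycl gained one under 8 of 26. The number of genes higher was 1858 with TPM scaling and 2276 to 3033 when libraries were left out singly. The number lower was 2171 at a mean FPKM of 5, 6577 with array weights and 2360 to 4227 with libraries left out. Quantile normalization moved the median of all genes from -0.06 to 0.12 log2 and the split of calls from 44.7% to 57.4% higher, and TPM scaling moved the median to -0.23. Leaving out RPM replicate 2 and RPR2 replicate 3 together, chosen after seeing the data, gave Mycl -3.55 and Mxd3 0.40. Mga reversed to 0.018 with LSL/LSL tumours only and ran from -0.71 (without RPR2 replicate 3) to 0.14 with libraries left out, positive without RPR2 replicate 1 or 2. Mnt ran from -0.039 (without RPR2 replicate 3) to 0.48.

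For LSL/LSL against LSL/+, genes higher numbered 4 and 9 at pseudocounts of 0.1 and 0.01 and 0 to 6 with libraries left out. Genes lower numbered 30 without a filter, 0 with TPM scaling, quantile normalization, array weights or 1 library per title number, and 0 to 1 with libraries left out. With libraries left out Myc ran from -0.011 (without RPM replicate 2) to 2.24 and Mxi1 from -0.16 (without RPM replicate 2, and also negative without replicate 9) to 0.33. Mxi1 was -0.063 with median-of-ratios scaling.

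For the slope on Myc, genes higher and lower numbered 648 and 149 at a pseudocount of 0.1, 727 and 154 at 0.01, 533 and 165 at a mean FPKM of 5, 3697 and 199 with TPM scaling, 30 and 15 with quantile normalization, 714 and 252 with array weights, 44 and 13 with title numbers as a random effect, and 1 and 2 with 1 library per title number. They numbered 0 and 0 with median-of-ratios scaling and with LSL/LSL tumours only, 362 lower without a filter, and 0 to 879 higher and 0 to 275 lower with libraries left out. Slopes that reversed were Mycn at 0.13 (TPM) and 0.015 (array weights), Mycl at -0.028 (random effect), Mycl, Mxd4 and Mxi1 at -0.044, -0.034 and -0.015 (median-of-ratios), and Mycl, Mxd4, Mxi1 and Mxd1 at -0.64, -0.089, -0.070 and -0.076 (LSL/LSL only). With libraries left out Mycl ran from -0.65 to 0.24, Mxd4 from -0.091 to 0.12, Mxi1 from -0.069 to 0.14 and Mxd1 from -0.077 to 0.175, each lowest without RPM replicate 2, and Mycn from -0.25 to 0.034 (without RPM replicate 8). The cause of these changes was not tested. No paired analysis was possible because replicate numbers were given in accession order. RPR2 has 3 libraries and LSL/+ has 2, which limits the precision.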
